A study of Mus musculus with 4 samples.

Results

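The genes described here encode proteins of the smooth muscle contractile apparatus and its regulator myocardin. The 10 genes, Acta2, Tagln, Myh11, Cnn1, Myl9, Actg2, Des, Lmod1, Myocd and Cald1, were taken by name from the 47729 genes of the table. All 10 had a row. Transcriptomes were measured by RNA sequencing of whole tumors, 5 days after Lewis lung carcinoma (LLC) cells were grafted under the skin of the back of syngeneic C57BL/6 mice. LLC is a mouse lung tumor line that forms tumors in this strain.

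LLC-Chem tumors grew from LLC cells transfected with a pEFIN plasmid for bioactive murine chemerin (1-157), a chemoattractant protein that acts on the receptor CMKLR1. LLC tumors grew from cells that the labels call wild type, while the study also describes control cells that received an empty vector. The study speaks of clones of these lines, so that a difference between clones and an effect of chemerin cannot be told apart here. Each group held 2 libraries, and each library was a pool of 3 tumors, so the error given is the spread between pools of different tumors. With 2 pools against 2, the smallest p that an exact two-sided permutation test of 1 gene can reach is 0.333.

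Mural cells wrap the endothelial tube of blood vessels. Smooth muscle cells surround the larger vessels and pericytes the capillaries, and in tumors activated fibroblasts (myofibroblasts) take up part of the same program. The program is driven by serum response factor (SRF), which binds a short element named the CArG box, together with its coactivators of the myocardin family. The actin and myosin of this apparatus each have a close relative in nonmuscle cells, tumor cells included.

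Values are RPM, reads scaled to the size of the library, and 3 reads corresponded to 0.0883 to 0.105 RPM across the 4 pools, which held 28470000 to 33990000 reads. Rarres2, the chemerin gene, held 102.2 and 98.2 RPM in LLC tumors, against 105.9 and 105.8 RPM in those labelled LLC-Chem (log2 fold change 0.08, adjusted p = 0.541 by limma). It therefore did not check the labels, and 33.6% of its exon bases lie under an opposite-strand gene. The receptor gene Cmklr1 was at -1.52 (adjusted p = 0.0307). Of the 13694 genes that averaged at least 1 RPM, 13.5% were called lower in LLC-Chem tumors and 9.54% higher by limma, at a Benjamini-Hochberg adjusted p below 0.05. The median log2 fold change of all tested genes was -0.04.

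Acta2, Des, Myl9 and Tagln fell in LLC-Chem tumors, to between 17.7% and 47.4% of the LLC mean. Acta2, the smooth muscle actin, had the lowest ratio of the 4. Myh11, the smooth muscle myosin heavy chain, was lower in both LLC-Chem pools but did not pass the test. Cald1, which encodes the actin-binding protein caldesmon, was the most abundant of the 10 genes per length and was not lower. Cnn1, Actg2, Lmod1 and Myocd averaged under 1 RPM over the 4 pools and were left out of the main test.

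**Figure D1:**
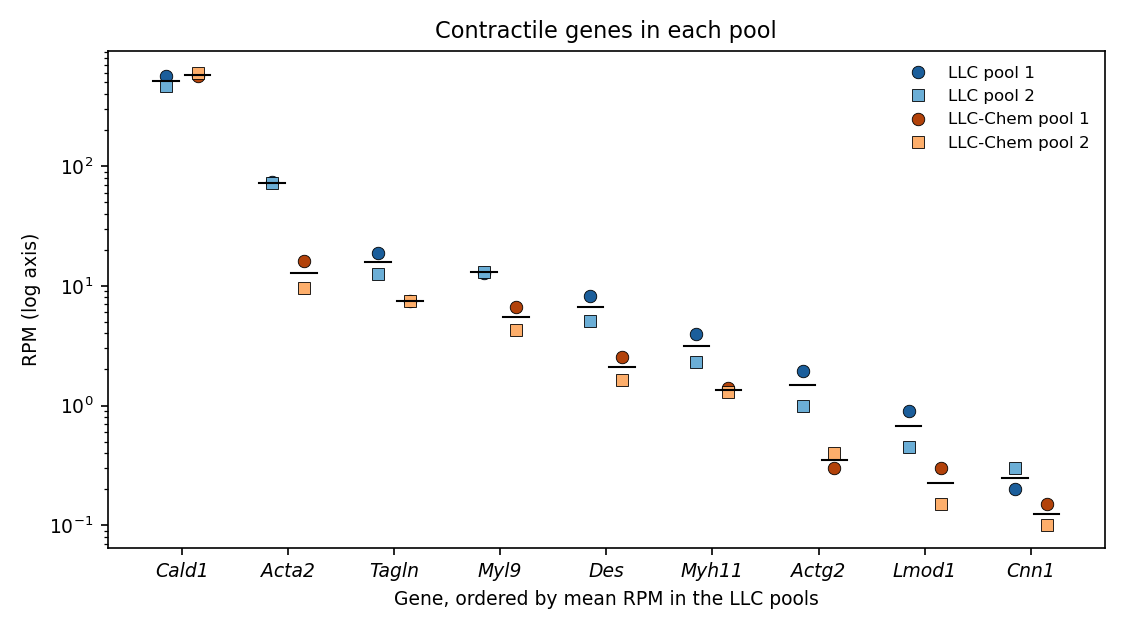
RPM (log axis) of 9 contractile genes in each of the 4 pools, ordered by their mean in the LLC pools, with LLC to the left and LLC-Chem to the right of each gene and a line at each group mean. Myocd is left out because 3 pools were at 0; in 8 genes both LLC-Chem pools lie below both LLC pools, and in Cald1 they lie above.

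The actins form the thin filaments on which myosin pulls. Acta2 (ENSMUSG00000035783, chr19:34241090-34255590 of GRCm38, minus strand) encodes alpha smooth muscle actin, the usual marker of mural cells and myofibroblasts. Its level was 73.5 and 71.9 RPM in LLC tumors, against 16.2 and 9.54 RPM in LLC-Chem tumors, from 2266, 2046, 550 and 320 reads. The LLC pools lay close together and far above both LLC-Chem pools. The means were 72.7 ± 1.13 RPM and 12.9 ± 4.70 RPM (SD, n = 2), and the log2 fold change was -2.50 ± 0.25 (SE, adjusted p = 0.010 by limma). Of the 50-base words of its exons, 0.326% occurred in another gene, among them Actg1 and a pair of pseudogenes.

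The stretches of Acta2 around its near matches to a CArG box are shown, because this element is the binding sequence of SRF. They were read from the RefSeq promoter window of GRCm38.p6, which spans 250 bases before and 50 bases after the start site of that table. Both lie in the first exon of a longer transcript of the GENCODE annotation. Capitals mark the CArG-like word, each with 1 mismatch, 84 and 34 bases before the start site.
Acta2, chr19:34255438-34255467, minus strand: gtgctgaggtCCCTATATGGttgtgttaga
Acta2, chr19:34255388-34255417, minus strand: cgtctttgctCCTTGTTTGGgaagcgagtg

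Actg2 (ENSMUSG00000059430, chr6:83512905-83536265, minus strand) encodes the gamma smooth muscle actin of visceral muscle. Its level was 1.95 and 1.00 RPM in LLC tumors, against 0.300 and 0.40 RPM in LLC-Chem tumors, from 60, 28, 10 and 13 reads. The groups did not overlap, and the LLC-Chem mean was 23.7% of the LLC mean. Actg2 entered the test only when genes down to a mean of 0.2 RPM were included, where its adjusted p was 0.0490 by limma and 9.81% of genes were called lower. With every gene above 0 included, the adjusted p was 0.140.

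Myosin supplies the motor. Myh11 (ENSMUSG00000018830, chr16:14194535-14291372, minus strand) measured 3.95 and 2.30 RPM in LLC tumors, against 1.40 and 1.30 RPM in LLC-Chem tumors. Both LLC-Chem pools were lower, but the LLC pools themselves differed more than the nearest pools of the 2 groups. The means were 3.12 ± 1.17 RPM and 1.35 ± 0.0706 RPM (SD, n = 2), and the log2 fold change was -0.93 ± 0.29 (SE, adjusted p = 0.0688 by limma), which did not pass the threshold.

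Myl9 (ENSMUSG00000067818, chr2:156775420-156781658, plus strand) encodes the regulatory light chain whose phosphorylation starts contraction. Its level was 12.7 and 13.1 RPM in LLC tumors, against 6.65 and 4.25 RPM in LLC-Chem tumors, from 393, 374, 226 and 142 reads. Every LLC pool was above every LLC-Chem pool. The means were 12.9 ± 0.283 RPM and 5.45 ± 1.70 RPM (SD, n = 2), and the log2 fold change was -1.21 ± 0.24 (SE, adjusted p = 0.0265 by limma).

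The part of the Myl9 promoter window that precedes the RefSeq record of the gene is shown because, among the promoter windows of these genes, Myl9's was the only one to hold an exact CArG box. The sequence is from the RefSeq promoter table of GRCm38.p6, with the exact word 161 bases and a word with 1 mismatch 99 bases before the start site in capitals. That start site is the one of the promoter table and lies past the end of the stretch.
Myl9, chr2:156775214-156775407, plus strand: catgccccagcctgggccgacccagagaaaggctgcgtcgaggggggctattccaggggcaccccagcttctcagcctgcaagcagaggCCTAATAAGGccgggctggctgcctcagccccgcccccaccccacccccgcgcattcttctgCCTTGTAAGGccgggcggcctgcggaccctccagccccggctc

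RefSeq promoter windows were given for 6 of the 10 genes, 7 windows in all because Cald1 had a pair of them. An exact CArG box on either strand was found in 1 of the 7, against 1.63% of the 32851 windows of the table. With up to 1 mismatch it was found in 2 of the 7, those of Acta2 and Myl9, against 9.98% of all windows; this looser search was added after the exact one was seen. The letters TATAAA were found in 1 of the 7 windows, the second one of Cald1, against 13.6% of all windows. The letters CATTCC were found in 3 of the 7, those of Acta2, Lmod1 and the first of Cald1, against 14.7% of all windows. These matches describe letters in a 300-base window and do not show binding. The window of Des, which also fell, held none of these words, and its upstream bases are shown for contrast.
Des, chr1:75360042-75360291, plus strand: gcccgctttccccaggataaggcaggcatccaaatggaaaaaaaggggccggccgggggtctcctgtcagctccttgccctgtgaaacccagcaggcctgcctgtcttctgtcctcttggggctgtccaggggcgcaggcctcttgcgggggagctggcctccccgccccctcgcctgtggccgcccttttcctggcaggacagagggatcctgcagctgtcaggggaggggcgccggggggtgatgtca

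Des (ENSMUSG00000026208, chr1:75360329-75368579, plus strand) encodes desmin, the intermediate filament of muscle and of pericytes. Its level was 8.25 and 5.05 RPM in LLC tumors, against 2.55 and 1.65 RPM in LLC-Chem tumors. The lowest LLC pool was above the highest LLC-Chem pool, although the LLC pools differed more between themselves than the nearest pools of the 2 groups. The means were 6.65 ± 2.26 RPM and 2.10 ± 0.636 RPM (SD, n = 2), and the log2 fold change was -1.44 ± 0.31 (SE, adjusted p = 0.0317 by limma). An opposite-strand gene, Gm15179, covers 5.86% of its exon bases.

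Tagln (ENSMUSG00000032085, chr9:45929619-45936058, minus strand) encodes transgelin, or SM22 alpha, an actin-binding protein of smooth muscle. Its level was 18.8 and 12.5 RPM in LLC tumors, against 7.40 and 7.5 RPM in LLC-Chem tumors. The LLC-Chem pools were nearly equal. The groups did not overlap, but the LLC pools differed more between themselves than the nearest pools of the 2 groups. Group means were 15.7 ± 4.45 RPM and 7.45 ± 0.0708 RPM (SD, n = 2), and the log2 fold change was -1.0 ± 0.23 (SE, adjusted p = 0.0345 by limma). Genes on the opposite strand cover 67.9% of the exon bases of Tagln, of which Gm48529 covers 62.4% and Pcsk7 5.43%. Gm48529 is not among the identifiers of the table, and Pcsk7 measured 38.5 and 42.1 RPM in LLC tumors, against 33.0 and 30.9 RPM in LLC-Chem tumors. Whether strand was used in counting is not given in the sources used here, so whether these partners raised or lowered the count of Tagln is not known.

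Cald1 (ENSMUSG00000029761, chr6:34598500-34775473, plus strand) measured 561.5 and 469.0 RPM in LLC tumors, against 563.3 and 596.0 RPM in LLC-Chem tumors. Both LLC-Chem pools were above both LLC pools, by a margin at its narrowest of 563.3 against 561.5 RPM. Group means were 515.3 ± 65.5 RPM and 579.7 ± 23.1 RPM (SD, n = 2), and the log2 fold change was 0.17 ± 0.14 (SE, adjusted p = 0.367 by limma). Smooth muscle makes a long form of caldesmon and other cells a short form from the same gene. The annotation lists 10 coding transcripts, and its RefSeq promoter windows lie 110.9 kb apart, but a value per gene does not separate the forms.

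Calponin and leiomodin, which bind actin filaments, were near the detection limit. Cnn1 (ENSMUSG00000001349, chr9:22099216-22109630, plus strand) had 6 and 8 reads in the LLC pools and 5 and 3 reads in the LLC-Chem pools. Lmod1 (ENSMUSG00000048096, chr1:135324807-135368065, plus strand), which encodes an actin filament nucleator of smooth muscle, had 27 and 12 reads in the LLC pools and 10 and 5 reads in the LLC-Chem pools. Scaled to library size, each was lower in both LLC-Chem pools, for Cnn1 by only a few reads. Under the looser filters by limma neither passed: Lmod1 had an adjusted p of 0.117 at a mean of 0.2 RPM and 0.205 with every gene above 0, and Cnn1 had 0.219 in the latter. Myocd (ENSMUSG00000020542, chr11:65176561-65269989, minus strand), which encodes the SRF coactivator myocardin, had 1 read in the second LLC pool and 0 in the other 3 pools. Its difference was not detectable at this depth, since 3 reads of a pool are the upper limit that a count of 0 allows, for counting error only.

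Over the 6 of 10 genes that were tested, 4 were called, all lower, against 13.5% of all tested genes called lower. Their median log2 fold change was -1.10, beside -0.04 for all tested genes. In 5 of the 6 both LLC-Chem pools lay below both LLC pools, as they did in 39.3% of all tested genes. Over all 10 genes this held for 8, with Cald1 above and Myocd overlapping, against 27.7% of the genes above 0 in any pool. Summed without Cald1, the genes made up 120.3 and 106.7 RPM of the LLC pools and 34.9 and 24.9 RPM of the LLC-Chem pools. Acta2 was the larger part of these sums in the LLC pools, and the remaining 8 genes summed to 46.8 and 34.8 RPM there and to 18.7 and 15.3 RPM in LLC-Chem. In these whole tumors, fewer cells that express such genes and less RNA per cell cannot be told apart.

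Per kb of exon, the order of the levels was the same in both groups. In LLC tumors it ran from Cald1 at 42.8 ± 5.44 RPM per kb through Acta2 at 33.1 ± 0.515, Myl9 at 11.1 ± 0.243 and Tagln at 7.89 ± 2.24 (SD, n = 2). Des followed at 1.77 ± 0.602 RPM per kb, Actg2 at 0.947 ± 0.431, Myh11 at 0.411 ± 0.153, Lmod1 at 0.171 ± 0.0805 and Cnn1 at 0.0913 ± 0.0258. In the LLC pools no neighbours in this order overlapped. In the LLC-Chem pools Acta2, at 5.86 ± 2.14 RPM per kb, overlapped with Myl9 at 4.69 ± 1.46, and Myl9 with Tagln at 3.75 ± 0.0356. Lmod1 and Cnn1 also overlapped there. The distance between Cald1 and Acta2, which were neighbours in LLC tumors, was thus much larger in LLC-Chem tumors, with Cald1 at 48.1 ± 1.92 RPM per kb.

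The contractile genes other than Cald1 and Myocd were next set beside relatives that nonmuscle cells use. Of the 11 relatives, 2 passed the test, both lower, against 13.5% of all tested genes called lower. Cnn2, a nonmuscle calponin, was at a log2 fold change of -0.80 (adjusted p = 0.0144 by limma) and Myh9, a nonmuscle myosin heavy chain, at -0.41 (adjusted p = 0.0470). The cytoplasmic actins Actb and Actg1 had values of -0.48 and -0.38 (adjusted p = 0.122 and 0.101), against -2.50 for Acta2. The light chains Myl12a and Myl12b had values of -0.09 and -0.14 (adjusted p = 0.554 and 0.284), against -1.21 for Myl9. Tagln2 had a value of -0.20 (adjusted p = 0.253), against -1.0 for Tagln. The intermediate filament gene Vim was at 0.42 (adjusted p = 0.232), against -1.44 for Des. Myh10, Cnn3 and Tmod3 had values of -0.29, 0.21 and -0.22, with adjusted p from 0.0978 to 0.178. The cytoplasmic actins have many processed copies in the genome, and 19.9% and 26.7% of the exon bases of Myl12a and Myl12b lie under another gene record, so the split of reads among these relatives is uncertain. The median of the 11 was -0.22, and their summed level was 10460 to 10820 RPM in all 4 pools.

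**Figure D2:**
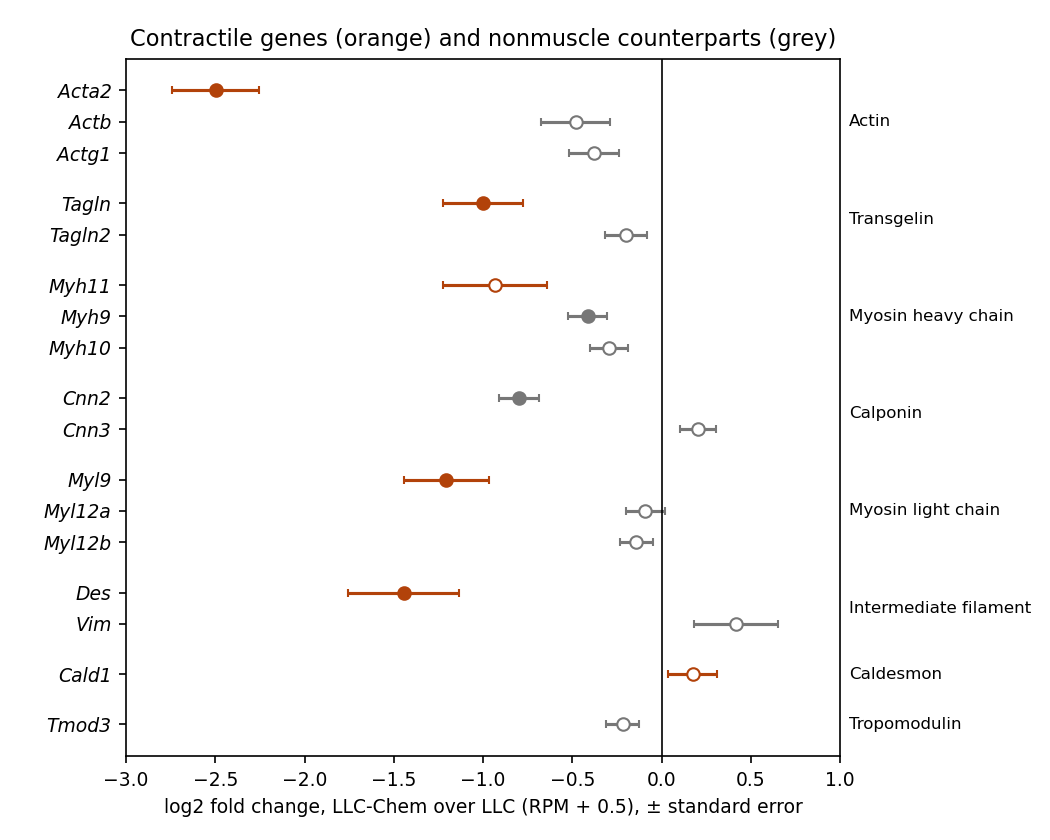
Log2 fold change of LLC-Chem over LLC with its standard error for the tested contractile genes (orange) and their nonmuscle relatives (grey), grouped by protein family, with filled points for an adjusted p below 0.05 by limma. The tested actin, transgelin, light chain and intermediate filament of smooth muscle lie to the left of every relative in their family, and Cald1 and its error lie to the right of 0.

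The share of the smooth muscle form in its family, per kb of exon and within each pool, does not depend on the scaling of the pools. The smooth muscle actins Acta2 and Actg2 made up 2.14% and 2.19% of the 4 actins in the LLC pools and 0.626% and 0.435% in the LLC-Chem pools. Myl9 made up 5.06% and 5.36% of its 3 light chains in the LLC pools and 2.91% and 1.93% in the LLC-Chem pools. Des made up 0.264% and 0.159% of Des and Vim in the LLC pools and 0.0623% and 0.0384% in the LLC-Chem pools. In these 3 families the share was lower in both LLC-Chem pools, and the smooth muscle form was a small part of its family in every pool.

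Tagln made up 2.60% and 1.69% of Tagln and Tagln2 in the LLC pools and 1.15% and 1.21% in the LLC-Chem pools. The share of Myh11 was 0.991% and 0.571% in the LLC pools and 0.467% and 0.425% in the LLC-Chem pools. That of Cnn1 was 0.0440% and 0.0689% against 0.0393% and 0.0285%, from at most 8 reads of Cnn1 a pool. The groups did not overlap in any of the 6 families. The smooth muscle genes themselves were already lower in both LLC-Chem pools, as were 39.3% of all tested genes. The shares therefore add no separate evidence. Each exact two-sided permutation test gave p = 0.333, the smallest this design allows.

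**Figure D3:**
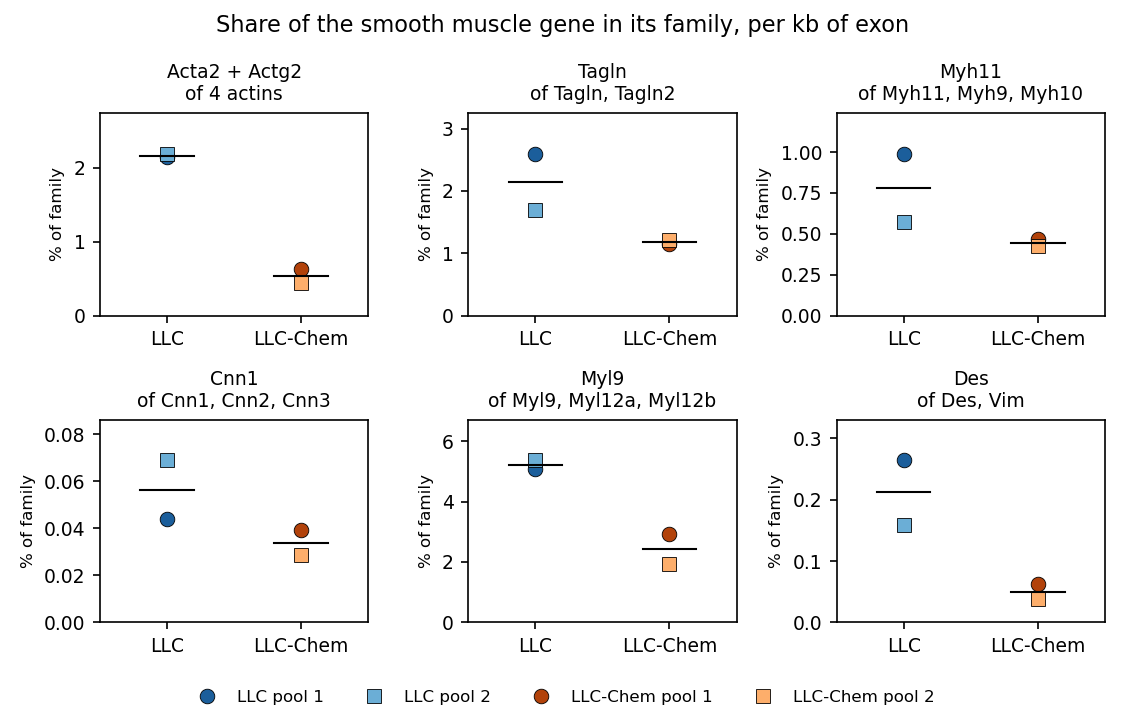
Share of the smooth muscle gene in its protein family in each pool (% of the RPM per kb of exon), in 6 panels with their own axes from 0, with a line at each group mean. In every panel both LLC-Chem pools lie below both LLC pools, as in the actins at 0.626% and 0.435% against 2.14% and 2.19%.

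Of 20 other genes of the contractile apparatus, 16 were tested, of which 5 fell and 1 rose, against 13.5% and 9.54% of all tested genes, with a median log2 fold change of -0.28. Among those that fell were Tpm1, a tropomyosin (log2 fold change -0.86, adjusted p = 0.0135 by limma), and Actn1, an alpha-actinin that crosslinks actin (-0.62, adjusted p = 0.0177). Tgfb1i1, which encodes the focal adhesion protein Hic-5, had a value of -1.22 (adjusted p = 0.0249 by limma) and Pdlim7, of the PDZ and LIM domain family, one of -0.50 (adjusted p = 0.0258). The gene that rose was Ppp1r12b, a regulatory subunit of myosin phosphatase (1.01, adjusted p = 0.0286 by limma), named here after its values were seen.

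Of the 21 listed regulators of the program, all tested, 1 rose and 0 fell, against 9.54% and 13.5% of all tested genes. Their median log2 fold change was -0.0036. The gene that rose, Smad3, a transducer of TGF-beta signals, did so by 0.49 in log2 units (adjusted p = 0.0447 by limma). The next by p were Smad2 at -0.35, Mef2c at -0.82 and the TGF-beta receptor gene Tgfbr1 at 0.35, with adjusted p of 0.0617, 0.0624 and 0.0689. The genes of SRF and of its coactivator MRTF-A (Srf and Mkl1), named here after their values were seen, were at -0.16 and -0.17 (adjusted p = 0.293 and 0.271).

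Markers of other cell types that a tumor can hold are given beside the contractile genes, and their part in the differences was not tested. Of 10 pericyte markers 8 were tested and 6 fell, against 13.5% of all tested genes, with a median log2 fold change of -1.46. Their summed level was 286.1 and 243.7 RPM in LLC tumors, against 107.5 and 78.1 RPM in LLC-Chem tumors. Pdgfrb, the platelet-derived growth factor receptor of mural cells, was at -1.53 (adjusted p = 0.0130 by limma). Rgs5, Mcam and Ndufa4l2 had values of -1.99, -2.00 and -1.23 (adjusted p = 0.0150, 0.0257 and 0.0219). Not all of the list moved with them: Notch3 was at -0.10 and Kcnj8 at -0.48, and neither passed the test (adjusted p = 0.738 and 0.389), both named after their values were seen.

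The ratio of contractile to mural marker RNA was taken within each pool, as a description added after these values were seen. Summed without Cald1, the contractile genes stood at 0.420 and 0.438 of the summed pericyte markers in the LLC pools and at 0.325 and 0.319 in the LLC-Chem pools. This order rested on Acta2: without it and Cald1, the ratio was 0.164 and 0.143 in LLC and 0.174 and 0.197 in LLC-Chem. Acta2 stood at 1.12 times Pdgfrb in both LLC pools and at 0.604 and 0.525 times in the LLC-Chem pools. Acta2 was thus lower relative to Pdgfrb, which is 1 of the 10 pericyte markers. The ratio of Myl9 to Pdgfrb went the other way, at 0.195 and 0.205 in the LLC pools and 0.248 and 0.234 in the LLC-Chem pools. For Des and Tagln the ratios to Pdgfrb overlapped between the groups. The choice of marker matters here. Acta2 and Rgs5 measured 73.5 and 73.7 RPM in the first LLC pool, and both 16.2 RPM in the first LLC-Chem pool. Relative to Rgs5, Acta2 was thus not lower in every LLC-Chem pool.

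All 8 endothelial markers were lower in both LLC-Chem pools, against 39.3% of all tested genes, and 7 fell, against 13.5%. Their median log2 fold change was -2.06. They summed to 256.7 and 211.0 RPM in LLC tumors, against 71.1 and 40.3 RPM in LLC-Chem tumors. Kdr, Cdh5, Pecam1 and Tie1 had values of -2.10, -2.46, -2.08 and -2.40 (adjusted p = 0.00930, 0.0141, 0.0204 and 0.0210 by limma). The ratio of the contractile genes without Cald1 to the endothelial markers was 0.469 and 0.506 in the LLC pools and 0.492 and 0.618 in the LLC-Chem pools. These overlapped, while without Acta2 as well the ratio was 0.182 and 0.165 in LLC and 0.264 and 0.381 in LLC-Chem.

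Of 11 fibroblast and myofibroblast markers, 4 fell and 1 rose (Pdgfra), against 13.5% and 9.54% of all tested genes. Their median log2 fold change was -0.26, and the summed level was 24410 to 45730 RPM in LLC and 30210 to 33260 RPM in LLC-Chem. Postn, a matrix gene of activated fibroblasts, fell by 3.20 in log2 units (adjusted p = 0.00909 by limma), Col1a1 by 1.51 (adjusted p = 0.0334), Col1a2 by 1.46 (adjusted p = 0.0384) and Lrrc15 by 0.79 (adjusted p = 0.0342). Pdgfra, named with the next genes after their values were seen, was at 0.72 (adjusted p = 0.0450). Dcn, Lum and Tnc, at 0.80, 1.0 and 0.73 (adjusted p = 0.0753, 0.0776 and 0.225), were also higher in both LLC-Chem pools but did not pass, so that 4 of the 11 lay above and 5 below without overlap, against 33.1% and 39.3% of all tested genes. Of 5 macrophage markers 1 fell, Csf1r (-1.50, adjusted p = 0.0490), against 13.5% of all tested genes, with a median of -0.86. C1qa, Adgre1 and Cd68 were at -0.66, -1.01 and -0.86 and did not pass (adjusted p = 0.0650, 0.0851 and 0.107). Mrc1, named after its values were seen, was at -0.06 (adjusted p = 0.769 by limma) and overlapped between the groups. The macrophage markers summed to 1687 to 2095 RPM in LLC and 936.2 to 1446 RPM in LLC-Chem.

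**Figure D4:**
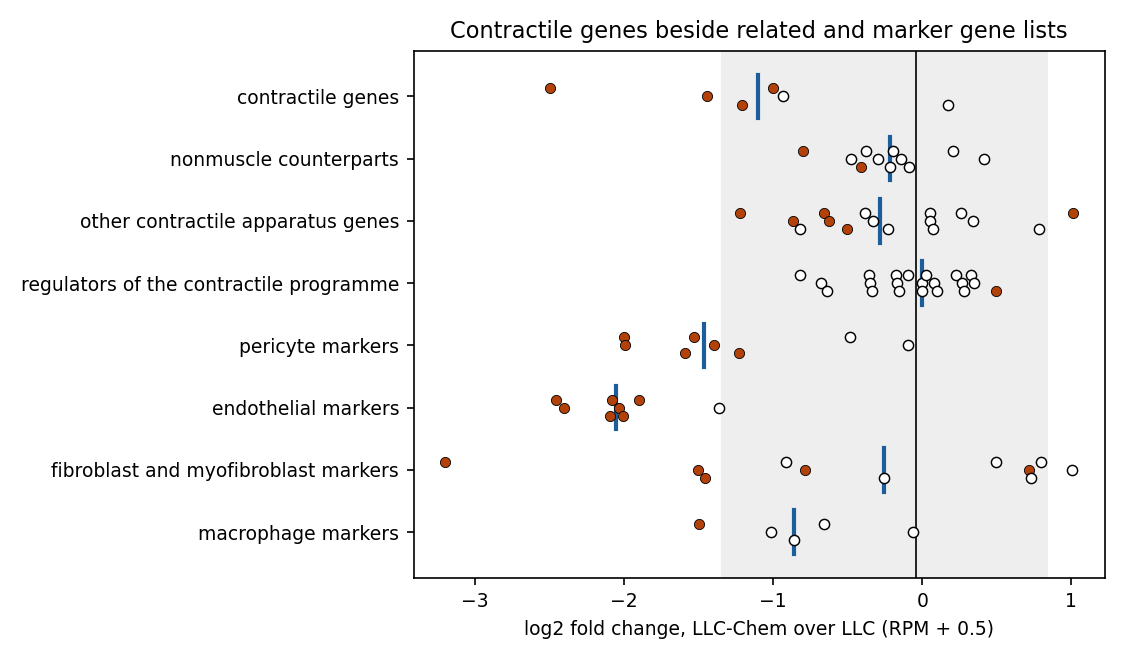
Log2 fold change of LLC-Chem over LLC for each tested gene of 8 lists, with filled points for an adjusted p below 0.05 by limma, a blue line at the median of each list, a black line at the median of all tested genes and a grey band over the middle 90% of them. The contractile genes have a median of -1.10, between -0.28 for other contractile apparatus genes and -1.46 for pericyte markers, and Cald1 is their single point to the right of 0.

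Markers of the skin, fat and skeletal muscle that lie next to the graft were low. Of 12 striated muscle markers, Ckm, Myh1, Myh4, Tnnc2, Actn2 and Pax7 were at or under 3 reads in every pool, and the list summed to 4.10 to 5.05 RPM in LLC and 5.25 to 7.10 RPM in LLC-Chem. Its 1 tested gene, Tnnt3, rose (log2 fold change 1.21, adjusted p = 0.0419 by limma), against 9.54% of all tested genes called higher. Tnnt3 went opposite to Des, but 3 of the 12 genes, Acta1, Actc1 and Actn2, were lower in both LLC-Chem pools, as Des was. The other 8 overlapped. Acta1, named with Actc1 after their values were seen, had 7 and 14 reads in LLC and 5 and 3 in LLC-Chem. Actc1 had 12 and 11 reads in LLC and 6 and 0 in LLC-Chem. Neither was abundant enough to be tested. Of 4 adipocyte markers 2 were tested, 1 of which was called, against the same 9.54%: Cfd rose by 2.16 in log2 units (adjusted p = 0.0466) while Adipoq was at 0.87 (adjusted p = 0.242). These summed to 2.55 to 2.85 RPM in LLC and 5.45 to 20.7 RPM in LLC-Chem. Of 4 keratinocyte markers, Krt5, Krt14 and Krt1 were at or under 3 reads in every pool, and Krt10 was at -0.66 (adjusted p = 0.110).

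Pools of a group differed across whole lists. The first LLC-Chem pool was above the second in 4 of the 6 tested contractile genes, 7 of 8 pericyte and 8 of 8 endothelial markers, against 51.6% of all tested genes. For LLC the first pool was above the second in 5 of 6, 7 of 8 and 7 of 8, but in only 1 of 11 fibroblast and 1 of 5 macrophage markers, against 57.9%. In LLC-Chem these were 9 of 11 and 5 of 5. When any 1 of the 4 pools was left out, the log2 fold changes of Acta2, Des, Myl9 and Tagln ran from -2.87 to -0.71 and none of the 13694 tested genes passed the threshold, so this loss says nothing about these genes in particular.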

How the data were processed

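Total RNA of whole tumors was sequenced as paired ends, 2 pools per group. Per the study's methods and processing notes, the authors aligned the reads to GRCm38.p4 (mm10) with STAR, counted genes with HTSeq and deposited RPM values for 47729 genes. Tool versions and the strand setting are not given in the sources used here. The deposited RPM are whole steps of a common size (100% of the values above 0 were whole within 0.1 of a step), so each pool appears scaled to a total of 20000000 steps, rounded up, and read totals of 28470000 to 33990000 were fitted from them.

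The main test was limma's, version 3.58.1 under R 4.3.3 (eBayes with a trend, two-sided), on log2(RPM + 0.5) for the 13694 genes that averaged at least 1 RPM, with Benjamini-Hochberg adjustment over all of them and a threshold of 0.05. Fold changes on this scale understate those of low genes. The steps were tested on simulated data. Counts of recovered reads were tested with edgeR 4.0.16 (quasi-likelihood) and DESeq2 1.42.0 as alternatives. Other alternatives changed the pseudocount, the filter, the scaling, the replicate block and the pools used.

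Column names were matched to sample titles, which gave the groups. The contractile genes and all lists were chosen with earlier results of these data known. All contractile genes and relatives are named. Of each other list, the up to 4 tested genes with the lowest p are named, and, for markers, those at or under 3 reads in every pool. Not every gene counted in a list is reported here. Coordinates and exon lengths are from GENCODE M21 (GRCm38), which held 99.1% of the identifiers. RPM per kb uses the union of a gene's exons. Summaries and plots used Python 3.11.15 with pandas 2.3.3 and matplotlib 3.10.9.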

Additional observations from a re-analysis of the deposited data

How the results depend on the processing

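Acta2, Des, Myl9 and Tagln kept a negative and Cald1 a positive log2 fold change under all 16 alternatives, and no call reversed. The same 4 genes were called lower under 8 of the 16, and under a filter at 0.2 RPM Actg2 was called with them. Cnn1, Lmod1 and Myocd had at most 27 reads a pool, which limits what can be seen of them. With every gene above 0 included, limma called 1 gene higher and 0 lower, so 0 of the contractile genes, with 3394 and 4003 genes at an unadjusted p under 0.05. When any 1 of the pools was left out, so that the lone pool of its group was assumed to vary like the other group, limma called 0 genes higher, 0 lower and 0 of the contractile genes, with 998 to 2359 and 1580 to 2823 genes at an unadjusted p under 0.05. Acta2 then had a log2 fold change of -2.87 to -2.13, Tagln of -1.28 to -0.71, Myl9 of -1.50 to -0.91 and Des of -1.77 to -1.12. Of the uncalled genes, Myh11 moved from -0.93 to -0.60 without the first LLC pool and to -1.27 without the second, and Cald1 from 0.17 to 0.30 and to 0.05 (0.138 and 0.756 as adjusted p). With every gene above 0 included, Acta2, Tagln, Myl9 and Des had adjusted p of 0.105, 0.129, 0.116 and 0.131 by limma.

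The pools of the groups share replicate numbers, but their deviations had a correlation of -0.14, so the numbers mark no known pairing. With the replicate block limma called 549 genes higher and 1064 lower, and 3 of the contractile genes (Tagln at an adjusted p of 0.0563). With the replicate block in edgeR (quasi-likelihood), 508 genes were higher and 733 lower, and 2 of the contractile genes, Acta2 and Des. A crossed pairing, chosen after seeing the data, gave 1579 and 2320 genes and 4 contractile genes. Without the block, edgeR called 1551 genes higher and 1600 lower and DESeq2 1876 and 2271, and both called the same 4 contractile genes. TMM scaling gave 1583 higher and 1643 lower and moved the median of all tested genes from -0.04 to 0.00.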
